A study of Mus musculus with 5 samples.

Results

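Among the donor-derived cells of mouse tracheas that had received stem cell-derived basal cells, 56 of 3435 cells were rich in Areg transcripts but had little of the club, basal, ciliated, microfold or hillock cell genes used to set them apart. Areg encodes amphiregulin, a ligand of the EGF receptor. A cell was a member if it had at least 3 Areg UMIs (unique molecular identifiers, each counting 1 captured transcript), fewer than 500 Scgb1a1 UMIs per 10000, fewer than 5 Krt5 UMIs per 10000, fewer than 2 Foxj1 UMIs, fewer than 5 Spib UMIs and fewer than 10 Krt13 UMIs per 10000. Only cells with 500 or more mouse genes detected and under 20% mitochondrial UMIs were considered. These thresholds, and the marker genes Upk3a, Plac8, Mal, Serpinb2, Cldn18 and Ecm1 that came with them, were chosen on the same cells. The levels of these 12 genes are therefore descriptions and carry no test.

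Recipients were adult wild type mice of the 129X1/S1 strain. Their tracheal surface was injured with 2% polidocanol, a detergent, and 5 hours later 6000000 iBCs, basal cells derived from mouse embryonic stem cells, were delivered into the trachea. One recipient trachea was taken at day 40 and another at day 56, digested with pronase and sorted. From each, live (Calcein Blue-positive) GFP-positive cells gave the donor-derived library and live GFP-negative cells the endogenous library. A control trachea of the same strain, with neither injury nor transplantation, gave a library of all live cells. Each day is thus 1 recipient, so a difference between days cannot be told apart from a difference between the animals, and what counts as donor-derived rests on the GFP gate. The labels say no more of the iBC line or of the age of the mice.

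The airway surface is renewed by basal cells, which give rise to luminal cells: club cells, which secrete the uteroglobin Scgb1a1 and detoxify inhaled chemicals, ciliated cells, which move mucus, and rarer types. Amphiregulin is made as a membrane-bound precursor and released by the protease ADAM17. The freed ligand binds the EGF receptor on the same or neighbouring cells, and in epithelia it is known for its part in growth and repair. Uroplakin 3a (Upk3a) is best known from the luminal membrane of the bladder, claudin 18 (Cldn18) from the tight junctions of stomach and lung, Mal from apical membrane transport, and Serpinb2 as an inhibitor of plasminogen activators. Ecm1 is a secreted matrix glycoprotein, and Plac8 is a small cysteine-rich protein.

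The bases just before the transcription start are shown for Areg, which defines the cells, and for Serpinb2, Ecm1 and Upk3a, markers that differed in how far they set members apart from club cells. They were read from RefSeq annotation of the mouse build GRCm38.p6, 250 bases upstream of the start, written 5′ to 3′ on the gene's strand: Areg at chr5:91139349-91139598 (plus strand), Serpinb2 at chr1:107511173-107511422 (plus strand, the first listed of 2 starts), Ecm1 at chr3:95739570-95739819 (minus strand) and Upk3a at chr15:85016891-85017140 (plus strand). Capitals mark matches to the cAMP response element TGACGTCA, the AP-1 motif TGANTCA and the TEAD motif GGAATG on either strand, and to the TATA box TATAAA on the gene's strand. None of the printed matches overlapped another.
Areg: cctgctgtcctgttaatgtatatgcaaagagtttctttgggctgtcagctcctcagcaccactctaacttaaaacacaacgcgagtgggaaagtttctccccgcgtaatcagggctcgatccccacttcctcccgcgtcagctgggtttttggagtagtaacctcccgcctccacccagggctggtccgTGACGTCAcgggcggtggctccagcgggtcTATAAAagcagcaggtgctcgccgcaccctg
Serpinb2: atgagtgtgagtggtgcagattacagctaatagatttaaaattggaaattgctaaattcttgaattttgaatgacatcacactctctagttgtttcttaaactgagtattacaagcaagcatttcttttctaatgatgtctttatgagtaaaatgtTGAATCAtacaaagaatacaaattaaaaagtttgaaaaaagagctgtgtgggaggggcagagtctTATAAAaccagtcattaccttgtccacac
Ecm1: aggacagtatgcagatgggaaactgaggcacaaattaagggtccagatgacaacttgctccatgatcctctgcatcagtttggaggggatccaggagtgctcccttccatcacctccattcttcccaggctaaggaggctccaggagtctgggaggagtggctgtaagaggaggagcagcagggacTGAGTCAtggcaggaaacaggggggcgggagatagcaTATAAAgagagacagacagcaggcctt
Upk3a: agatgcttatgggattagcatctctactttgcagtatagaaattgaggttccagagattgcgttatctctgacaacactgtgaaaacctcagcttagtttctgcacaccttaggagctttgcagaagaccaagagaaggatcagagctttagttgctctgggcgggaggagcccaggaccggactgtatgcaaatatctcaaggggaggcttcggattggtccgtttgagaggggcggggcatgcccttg
The Areg sequence held a cAMP response element that began 61 bases before the start and a TATA box that began 31 bases before it. Of 27025 genes in the table, 1.77% held the first and 8.94% the second within the same distance. Serpinb2 and Ecm1 each held an AP-1 motif, beginning 94 and 64 bases before the start, and a TATA box. The AP-1 motif occurred in 7.82% of all genes and in 2 of the 6 markers. The Upk3a window held none of these letters. Of the markers not printed, Mal, which was also found in more members than club cells, held only a TEAD motif, beginning 89 bases before the start. Plac8 and Cldn18 held none of these motifs. Whether a motif goes with how far a marker sets members apart was not tested. A match is a stretch of letters and was not tested as a binding site.

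After filtering, the donor-derived libraries held 1700 cells (day 40) and 1735 cells (day 56), the endogenous libraries 1323 and 1228, and the control 616, which makes 6602 cells in all. Total UMIs per library ran from 16580940 to 25569394. Scrublet called 48 of 6602 cells doublets (0.727%) and 0.412% and 0.231% of the donor-derived cells, and none of the 56 members was among them. At most 2 cell barcodes were shared between any pair of libraries, and no member's barcode was shared. The median member had 11968 UMIs at day 40 and 12635 at day 56, against 14538.5 and 16524.5 for club cells.

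Members numbered 37 of 1700 cells at day 40 (2.18%, exact 95% interval 1.54 to 2.99) and 19 of 1735 at day 56 (1.10%, 0.661 to 1.70). The same limits found 2 of 1323 endogenous cells at day 40 (0.151%, 0.0183 to 0.545), 0 of 1228 at day 56, which allows a share of up to 0.244% (3 counts of the total; 0.300% by the exact interval), and 0 of 616 control cells, which allows up to 0.487% (0.597%). Members were thus seen almost wholly in the GFP-positive gate, in both recipients. The shares were not tested: an exact two-sided permutation test of 2 libraries against 2 cannot go below p = 0.333. The intervals and limits cover counting error only. The 2 endogenous cells had 3 and 4 Areg UMIs, and no Upk3a, Serpinb2 or Cldn18 UMI. Plac8 (4 UMIs), Mal (10) and Ecm1 (2) were each found in 1 of them. One had 44 UMIs of Agr2, a goblet cell gene. These cells were too few to compare.

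Areg UMIs per member ran from 3 to 47 with a median of 8 at day 40, and from 3 to 51 with a median of 10 at day 56. Per 10000 UMIs the medians were 5.92 and 17.9. Of the 56 members, 11 had 3 or 4 Areg UMIs, 20 had 5 to 9, 10 had 10 to 19 and 15 had 20 or more. Summed over cells, Areg (chr5:91139599-91148432, plus strand) stood at 752 CPM (counts in each 1000000 UMIs) in members at day 40 and 1471 at day 56. It stood at 71.8 and 73.4 CPM in club cells and at 4.0 and 4.3 CPM in basal cells, the level against which free RNA in the droplets can be judged.

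**Figure D1:**
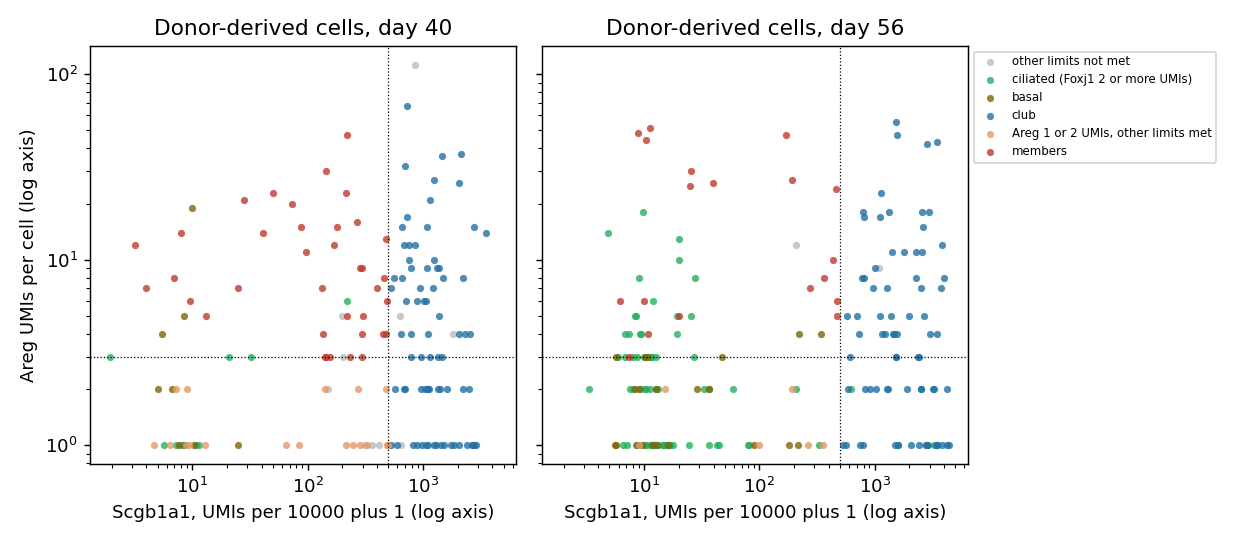
Every donor-derived cell with an Areg UMI is a point, with its Areg UMIs (vertical, log axis) against its Scgb1a1 UMIs per 10000 plus 1 (horizontal, log axis), at day 40 (left) and day 56 (right). Colours give the cell set and dotted lines the limits of 3 Areg UMIs and 500 Scgb1a1 UMIs per 10000; cells with high Areg lie on both sides of the Scgb1a1 limit, and at day 56 many ciliated cells have a few Areg UMIs.

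High Areg was not restricted to the members. At 3 or more UMIs, Areg was found in 93 donor-derived cells at day 40 and 99 at day 56, against 5 and 6 endogenous cells and 1 control cell. Of these donor-derived cells, 44 and 45 failed the limits only through Scgb1a1, and 4 and 26 only through Foxj1, the master regulator of motile cilia. The share of donor-derived ciliated cells (Foxj1 at 2 or more UMIs) with an Areg UMI was 16.9% (10 of 59) at day 40 and 60% (69 of 115) at day 56. The share in basal cells was 1.19% and 2.28%, and in club cells 15.1% and 16.7%. The median ciliated cell had 16128 and 11711 UMIs and the median basal cell 10980 and 9035. The plot of Areg against Scgb1a1 shows that the limit on Scgb1a1 runs through a continuous cloud of cells.

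Cells on either side of a limit looked alike in several markers. The 6 members with exactly 3 Areg UMIs had no Upk3a UMI, and neither did the 7 cells with 2 Areg UMIs that met the other limits. The 11 members with 300 to 500 Scgb1a1 UMIs per 10000 had 14.9 Upk3a and 19.4 Plac8 UMIs per 10000 on average. The 29 cells with 500 to 1000, just outside, had 13.4 and 19.1. Serpinb2 averaged 4.97 inside and 2.14 outside, and Ecm1 8.67 and 12.1. Within the members themselves, Scgb1a1 had a median of 154 per 10000 at day 40 (range 2.20 to 484) and 24.7 at day 56 (5.20 to 471), against medians of 5.68 and 8.81 in basal cells.

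Checked against markers, the members were epithelial and mostly, not wholly, carried the given luminal genes. Epcam, an epithelial adhesion molecule, was found in 56 of 56 members, at 726 UMIs in the day 40 cells and 404 in the day 56 cells. The limits keep Krt13, Foxj1 and Krt5 low, so their levels check nothing: Krt13 was at 0 in all members, Foxj1 in 37 of 37 and 17 of 19, and Krt5 in 34 of 37 and 15 of 19. The median member had a UMI of 4 of the 6 given markers on both days, against 2 in club cells. Cells with as much Areg but more Scgb1a1 had a median of 5, both the 29 cells just outside the limit and the 60 cells at 1000 per 10000 or more, so the marker count does not set the members apart from them. However, 3 of 37 members at day 40 and 6 of 19 at day 56 had 2 markers or fewer, so the label fits the day 40 cells more evenly. A UMI of EGFP, the donor reporter, was detected in 22 of 37 members (59.5%) and 11 of 19 (57.9%), against 56.7% and 48.2% of club cells.

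Serpinb2 and Ecm1 were found in more of the members than of the club cells in both recipients. Serpinb2 had a UMI in 56.8% of members at day 40 (exact 95% interval from 39.5) and 36.8% at day 56 (from 16.3), against 8.63% and 8.82% of club cells. Ecm1 had a UMI in 75.7% and 68.4% of members, against 36.9% and 24.9% of club cells. The gap remained when each cell was thinned to 5000 UMIs, which left out 1 member: Serpinb2 was then at 43.2% and 27.8% against 5.39% and 3.93%, and Ecm1 at 62.2% and 55.6% against 20.2% and 13.2%.

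Upk3a did not separate members from club cells. It had a UMI in 45.9% of members at day 40 and 36.8% at day 56, against 46.9% and 49.1% of club cells, 14.2% and 6.13% of Areg-zero cells (no Areg UMI, at least 1 Epcam UMI, other limits as for members), and 0.746% and 1.95% of basal cells. Plac8 was in 97.3% and 84.2% of members against 89.8% and 65.2% of club cells. Mal was in 37 of 37 members at day 40 and in 78.9% at day 56, against 63.5% and 64.9%. Cldn18 was the least even marker, in 37.8% of members at day 40 and 10.5% (2 of 19) at day 56, against 17.8% and 14.7% of club cells. After thinning, Mal was at 94.6% and 61.1% of members against 37.9% and 32.8% of club cells, Plac8 at 97.3% and 72.2% against 77.0% and 43.6%, Upk3a at 37.8% and 16.7% against 36.3% and 40.2%, and Cldn18 at 29.7% and 11.1% against 14% and 10.6%.

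**Figure D2:**
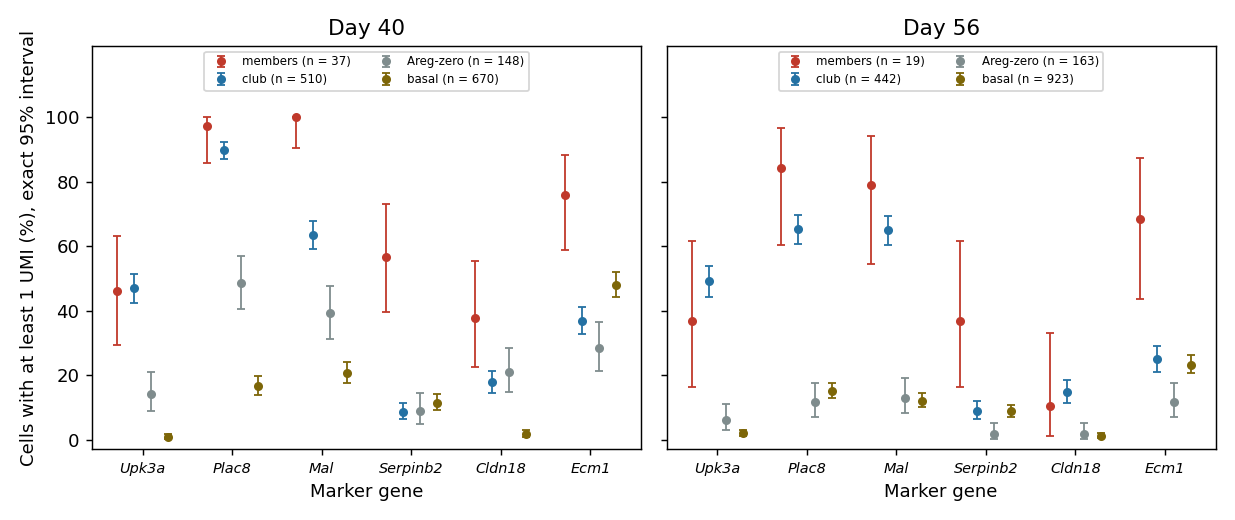
Points give the percent of cells with at least 1 UMI of each given marker, and bars the exact 95% interval, in members, club, Areg-zero and basal cells at day 40 (left) and day 56 (right), without thinning. Serpinb2 and Ecm1 lie above club cells in both recipients, the intervals of Upk3a overlap on both days, and those of Cldn18 overlap at day 56.

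Markers of other airway cells were found too, at uneven levels. Of the 7 ciliated markers other than Foxj1, 4 had a UMI in the day 40 members, where Ccdc153, Dynlrb2 and Pifo were at 0, and all 7 had one in the day 56 members. Their summed level was 1120 and 1240 CPM in members against 328 and 367 in club cells. At least 3 ciliated markers were found in 1 of 37 members at day 40 and 4 of 19 at day 56, against 3 of 510 and 4 of 442 club cells. The 7 basal markers other than Krt5 summed to 3992 and 3943 CPM, against 2178 and 884 CPM in club cells. At day 56 Dlk2 and Ngfr were at 0. At least 3 basal markers were found in 4 of 37 and 6 of 19 members, against 22 of 510 and 26 of 442 club cells. The 7 hillock markers other than Krt13 summed to 848 and 493 CPM, against 153 and 56.1 in club cells, with Sprr1b and Krtdap at 0. At least 3 of them were found in 12 of 37 and 4 of 19 members, against 18 of 510 and 6 of 442 club cells. The 7 microfold markers other than Spib summed to 715 and 589 CPM, against 479 and 154, with Gp2 at 0 at day 56, and at least 3 were found in 13 of 37 and 4 of 19 members, against 114 of 510 and 31 of 442 club cells. Ciliated, basal, hillock and microfold markers thus summed higher in members than in club cells in both recipients. The part of such RNA in the comparisons below was not tested. Tppp3 alone gave 243 of 605 and 107 of 322 ciliated UMIs of members, and Ccl20 234 of 386 and 82 of 153 microfold UMIs. At day 56, 3 members gave 62.7% of the ciliated, 60.3% of the basal, 44.5% of the hillock and 83.0% of the microfold UMIs. These CPM are of all UMIs, of which Scgb1a1 took 212424 and 287213 CPM in club cells, which lowers the other club levels. Secretory markers other than Scgb1a1 summed to 3344 and 6061 CPM, against 16977 and 28179 CPM in club cells.

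Cell division was seen in 1 member. All 194 UMIs of the dividing markers (Mki67, Top2a, Cdk1, Ccnb1, Ube2c and Birc5) at day 40 came from 1 cell, and at day 56 there were 0. T and NK cell, fibroblast, muscle and cartilage, and red blood cell markers had 0 UMIs in members of both libraries. Neuroendocrine markers had 1 UMI in all and ionocyte markers 6, of which Foxi1 gave 0.

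How the members sat among all donor-derived cells was described from the other genes, with the 6 rule genes left out of the principal components. Among a member's 15 nearest neighbours, 26.3% on average were members, which were 1.63% of the cells, and 45.4% were club, 10.6% Areg-zero and 4.88% basal cells. The share of member neighbours was 30.6% at day 40 and 17.9% at day 56, and 5 members had none. Members were 2.18% and 1.10% of the cells of these libraries, which were not aligned. Of the neighbours of day 40 members 5.95% came from the other library, and of those of day 56 members 49.8%. The part of this in the difference between days was not tested. Leiden clustering put 41 of the 56 members in 1 cluster of 234 cells, 35 of 37 at day 40 and 6 of 19 at day 56. That cluster also held 124 club cells. Of its 234 cells, 102 had 3 or more Areg UMIs, and these include the 41 members. The other 13 members of day 56 lay in 6 other clusters, among them 2 in a cluster of 159 cells with 152 ciliated cells.

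**Figure D3:**
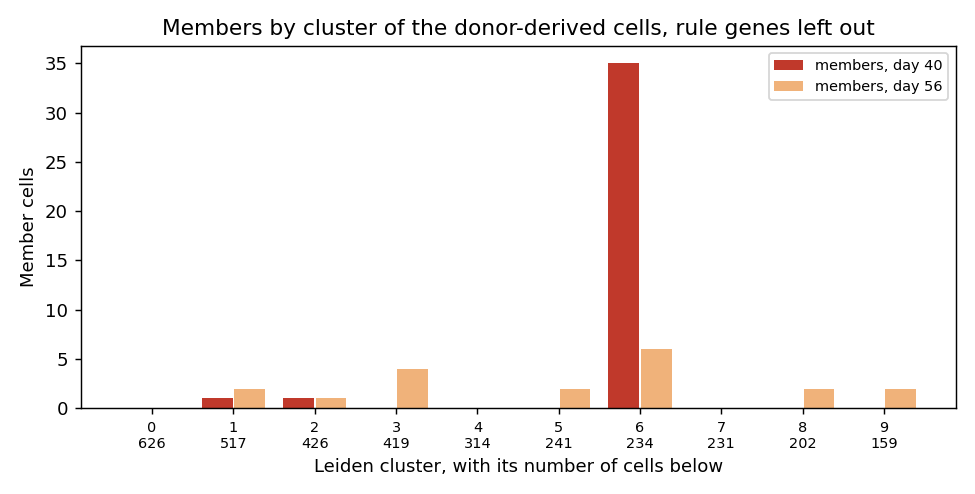
Bars count members by Leiden cluster of the donor-derived cells at day 40 and day 56, and the number under each cluster is its size in cells. The day 40 members sit in cluster 6 (35 of 37), the day 56 members are spread (6 of 19 in cluster 6).

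For tests across genes, UMIs were summed per library for 4 sets of donor-derived cells: members (37 and 19 cells at days 40 and 56), club cells (510 and 442, Scgb1a1 at 500 or more per 10000 with the other limits as for members and any Areg), basal cells (670 and 923, Krt5 at 5 or more per 10000, the other limits kept) and Areg-zero cells (148 and 163). The 6 rule genes were left out, and 11379 genes were tested in 1 edgeR fit with the library as a block, 2 sums per set. The 6 given markers stayed in the fit, so counts of calls can include them, but their p-values are not given. The sets were divided by Areg, Scgb1a1 and Krt5 in the same cells. Genes that vary with these 3 from cell to cell therefore differ between the sets by the way they were made. The adjusted p-values set each difference against a spread estimated from the sums of all 4 sets together. That spread is not the one of the members sums alone, which hold the fewest cells. Levels below are TMM-scaled CPM of the sums, day 40 first, and fold changes are log2.

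Compared with club cells, members were higher in Tppp3, Fam102b and 3 of 9 annexins, and lower in 11 of 19 secreted club cell genes and 13 of 26 drug metabolism enzymes. edgeR called 169 genes higher and 229 lower at an adjusted p under 0.05, which is 1.49% and 2.01% of those tested (3.5% in all). The median change of all genes was -0.05. The number of calls depended on each sum: 151 without the day 40 members, 94 without the day 56 members, 117 without the day 40 club cells and 138 without the day 56 club cells, and 9 without the library block. Of the 51 named genes called here, 16 stayed called with each of these 4 sums left out in turn, and 5 stayed called without the block. Of the genes described below, Hbegf, Cdkn2a, Cdkn2b, Anxa2, S100a14, Serpinb9, Upk3bl and Cdh13 lost their call with any of the 4 sums left out. Anxa5, Serpinb5, Btg2, F3 and Dusp6 lost it in 3 of the 4 fits. Anxa8, Fn1 and Igfbp7 lost it without either members sum.

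Tppp3 and Fam102b were among the most even of the genes that were higher. Tppp3 (chromosome 8), a tubulin-binding protein also listed as a ciliated marker, was at 442 and 376 CPM in members and 48.0 and 28.8 in club cells, with no overlap (log2 fold change 3.44, SE 0.35, adjusted p = 0.0042). It had a UMI in 28 of 37 and 14 of 19 members, more than the 1 and 4 members with 3 or more ciliated markers. The part that ciliated RNA plays in its level was not tested. Fam102b was at 81.9 and 70.3 CPM against 9.62 and 13.1 (2.80, SE 0.27, adjusted p = 0.00016).

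Anxa8, a calcium-dependent membrane-binding annexin, was at 147 and 105 CPM in members against 7.47 and 9.94 in club cells (3.81, SE 0.41, adjusted p = 0.0041). It came from 12 of 37 and 8 of 19 members, and 1 day 40 cell gave 55 of the 81 UMIs. Anxa2 was at 2040.1 and 1050.3 CPM against 821 and 608, and Anxa5 at 400 and 313 against 180 and 160. In all, 3 of the 9 annexins tested were called higher and none lower, with a median change of 0.55.

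Krt17, Clca3b and Wnt10a were higher than in club cells in both recipients, and members and club cells both had higher levels at day 40. Krt17, a keratin of basal and stratified epithelia, was at 211 and 56.2 CPM against 20.6 and 6.63 in club cells (3.25, SE 0.35, adjusted p = 0.0014), while basal cells had 833 and 316. Clca3b, of the calcium-activated chloride channel regulator family, was at 428 and 123 CPM against 40.8 and 12.7 (3.32, SE 0.36, adjusted p = 0.0036). Wnt10a, a Wnt ligand, was at 124 and 24.6 CPM against 8.96 and 1.95 (3.81, SE 0.33, adjusted p = 0.00016). For Krt17 and Wnt10a the members lay between club and basal cells, since basal cells had 188 and 89.5 CPM of Wnt10a. Without the day 40 members neither Krt17 nor Wnt10a stayed called, and Clca3b did not without either members sum. Krt17 had a UMI in 12 of 37 and 3 of 19 members, Clca3b in 27 and 5, and Wnt10a in 16 and 2. At day 56, 1 cell gave 9 of 16 Krt17 UMIs, 24 of 35 of Clca3b and 6 of 7 of Wnt10a. The day 56 levels of these 3 genes thus belong to some members and not to the typical one.

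A few leading genes came from few cells. Cdh6, a cadherin, had the largest fitted increase among those named, but its 7.28 and 186 CPM rest on 1 of 37 and 3 of 19 members (4 and 53 UMIs). Fn1, fibronectin, was at 71.0 and 112 CPM, and 38 of its 39 day 40 UMIs came from 1 cell. Igfbp7 was at 27.3 and 148 CPM, with 13 of 15 day 40 UMIs in 1 cell. Emp3, a tetraspan membrane protein, was at 29.1 and 35.1 CPM against 3.48 and 0.974, from 7 of 37 and 4 of 19 members. Cdh13, an atypical cadherin, was at 14.6 and 14.1 CPM from 5 and 3 members, against 2.32 and 1.56. Each of these 5 genes was found in at most 7 of 37 and 6 of 19 members, so the change belongs to some members and not to the typical one. Upk3bl, an uroplakin 3b-like gene, was more widely found, in 23 and 6 members, at 85.5 and 42.2 CPM against 16.8 and 2.34.

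**Figure D4:**
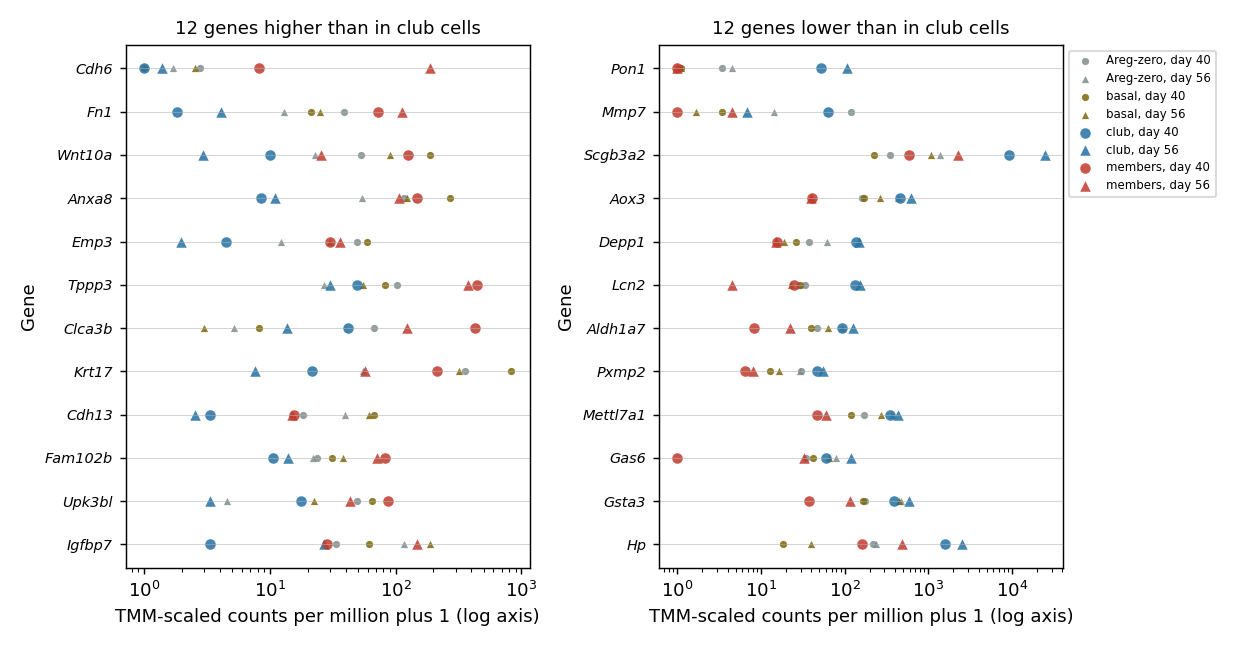
TMM-scaled CPM plus 1 (log axis) of the 12 genes with the largest increase (left) and decrease (right) in members against club cells; circles are day 40 and triangles day 56, large for members and club cells, small for basal and Areg-zero cells. Within each day members (red) and club cells (blue) are set apart, and for Krt17, Wnt10a and Anxa8 basal cells lie near or above the members.

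Secretory and detoxification genes were lower in members than in club cells. Of 19 genes of the secreted club cell list 11 were called lower and none higher, and of 26 drug metabolism enzymes 13 were lower and none higher, with median changes of -1.80 and -1.74. Since club cells were taken for high Scgb1a1, lower levels of the genes that go with it follow the choice of cells, and these counts are a description. Scgb3a2, another secretoglobin, was at 582 and 2262 CPM in members against 9208 and 24700.4 in club cells. Cyp2f2, the club cell cytochrome P450, was at 1958 and 1992 CPM against 9535 and 9187. Aox3, aldehyde oxidase, was at 40.0 and 38.6 CPM against 460 and 618, and Gsta3, a glutathione transferase, at 36.4 and 116 against 385 and 584. Pon1, paraoxonase, had 0 UMIs in the members of both libraries and 51.6 and 107 CPM in club cells, at least 9.45-fold and 10.1-fold lower when a count of 3 per library is taken as the limit. Lcn2, an iron-binding antibacterial lipocalin, was at 23.7 and 3.51 CPM against 133 and 154.

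Small parts of other lists were called against club cells, each read beside the 1.49% of all genes called higher. Of 14 basal cell genes 2 were higher, the adhesion genes Itga6 (220 and 274 against 90.8 and 64.5 CPM) and Lamb3 (120 and 94.8 against 30 and 32). Of 14 cell cycle inhibitors and p53 targets 2 were higher: Cdkn2a, the INK4A and ARF locus, whose transcripts counts per gene do not separate, at 506 and 425 CPM against 244 and 200, and Cdkn2b at 136 and 98.4 against 53.9 and 28.4. Of 15 squamous genes 2 were higher, Cstb and S100a14, and of 12 serpins 2, Serpinb5 and Serpinb9. F3, tissue factor, was at 428 and 204 CPM against 181 and 139. Of 17 immediate early genes, which tissue digestion is known to induce, none was called higher and 1, Btg2, lower (49.1 and 98.4 against 126 and 183 CPM). Claudins (8 tested), simple epithelial keratins (6) and mucins and goblet genes (12) gave no call in either direction.

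Genes of the EGF pathway other than Areg gave few calls against club cells. Of 5 ligands tested, Hbegf, heparin-binding EGF, was higher at 67.3 and 102 CPM against 29.5 and 51.8 in club cells (1.09, SE 0.25, adjusted p = 0.031 by edgeR). That call was lost with each sum left out (adjusted p from 0.16 to 0.29) and without the block (0.42). Btc, betacellulin, another ligand, stood at 41.9 and 14.1 CPM against 20.4 and 12.5 (adjusted p = 0.55). Ereg had 0 UMIs in members and club cells. Of 12 feedback and ERK target genes 1 was higher, Dusp6, an ERK phosphatase, at 85.5 and 116 CPM against 30.2 and 32.7, with a median change over the list of 0.05. Egfr, the receptor, was at 14.6 and 10.5 CPM in members, 24.4 and 15.4 in club cells (adjusted p = 0.50) and 67.7 and 61.6 in basal cells (log2 fold change -2.34, adjusted p = 0.00077). Against basal cells more of the pathway was called. Of the 5 ligands Btc and Hbegf were higher and Nrg1, neuregulin 1, lower, at 29.1 and 38.6 CPM against 91.5 and 177. Of the 7 receptor and shedding genes 2 were higher and Egfr lower. Of the 12 feedback and ERK target genes Phlda1 was higher and 4 were lower: the EGF signalling inhibitors Spry1 (30.9 and 24.6 against 65.1 and 101 CPM), Spry2, Spred1 and Spred2. The share of all genes called in that comparison was 14.8%.

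Far fewer genes were called against club cells when those club cells also had high Areg. Against the 44 and 45 club cells with 3 or more Areg UMIs, a comparison chosen after the data were seen, edgeR called 0 genes higher and 3 lower among 9306, with 715 at an unadjusted p under 0.05 in either direction. The 3 genes were Scgb3a2 (-2.31), Gsta3 (-1.65) and Sftpb (-2.44), a surfactant protein. This comparison rests on fewer club cells than the 510 and 442 above, and the part of that in the lower count was not tested. The change in Anxa2, F3, Hbegf and S100a14 turned to the other sign there, at -0.12, -0.55, -0.60 and -0.28, none of them called. Most of the named increases were smaller than against all club cells and none was called: Tppp3 was at 1.30 (adjusted p = 0.50), Krt17 at 3.04 (0.53) and Fam102b at 1.47 (0.16). Fn1 was at 5.23 (0.14). Over the genes called against all club cells and tested here, the median size of the log2 change was 0.59, against 1.27. Since these genes were picked for their calls against all club cells, the choice raises the 1.27, and the 2 medians do not measure a distance. Against club cells with no Areg UMI, the counts were 309 higher and 319 lower.

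Compared with basal cells, members were higher in 6 of 6 simple epithelial keratins and 8 of 13 tight junction genes and lower in 10 of 14 basal genes. edgeR called 957 genes higher and 728 lower, 8.41% and 6.4% of those tested (14.8% in all), and 752 in all without the library block. Leaving out 1 sum left 707 calls without the day 40 members, 779 without the day 56 members, 723 without the day 40 basal cells and 1354 without the day 56 basal cells. Since basal cells were taken for Krt5, the loss of other basal genes follows the choice of cells. Of 14 basal genes 10 were lower, among them Trp63, the basal lineage factor, at 14.6 and 17.6 CPM against 198 and 255, and Col17a1, a hemidesmosome collagen, at 3.64 and 7.03 against 135 and 142. Itga6 was not called, at 220 and 274 CPM against 180 and 171 (0.47, adjusted p = 0.13).

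All 6 simple epithelial keratins were called higher than in basal cells, 8 of 13 other tight junction genes (2 lower), 5 of 8 claudins, 8 of 12 Ly6 and Lypd surface proteins, and 7 of 15 MHC class I and antigen processing genes. Krt8 was at 4057 and 2656 CPM against 612 and 515, and Krt18 at 3487 and 1739 against 515 and 472. Cldn3 was at 803 and 597 CPM against 12.8 and 3.29, and Cldn7 at 934 and 692 against 169 and 128. The membrane mucins Muc1 (475 and 270 against 13.7 and 5.16 CPM) and Muc16 (491 and 239 against 6.57 and 2.86) were higher too. Psca, a GPI-anchored Ly6 family protein, was at 5127 and 2171 CPM against 489 and 99.8. Upk3a was at 753 and 783 CPM in members, 802 and 1478 in club cells and 0.807 and 2.42 in basal cells.

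**Figure D5:**
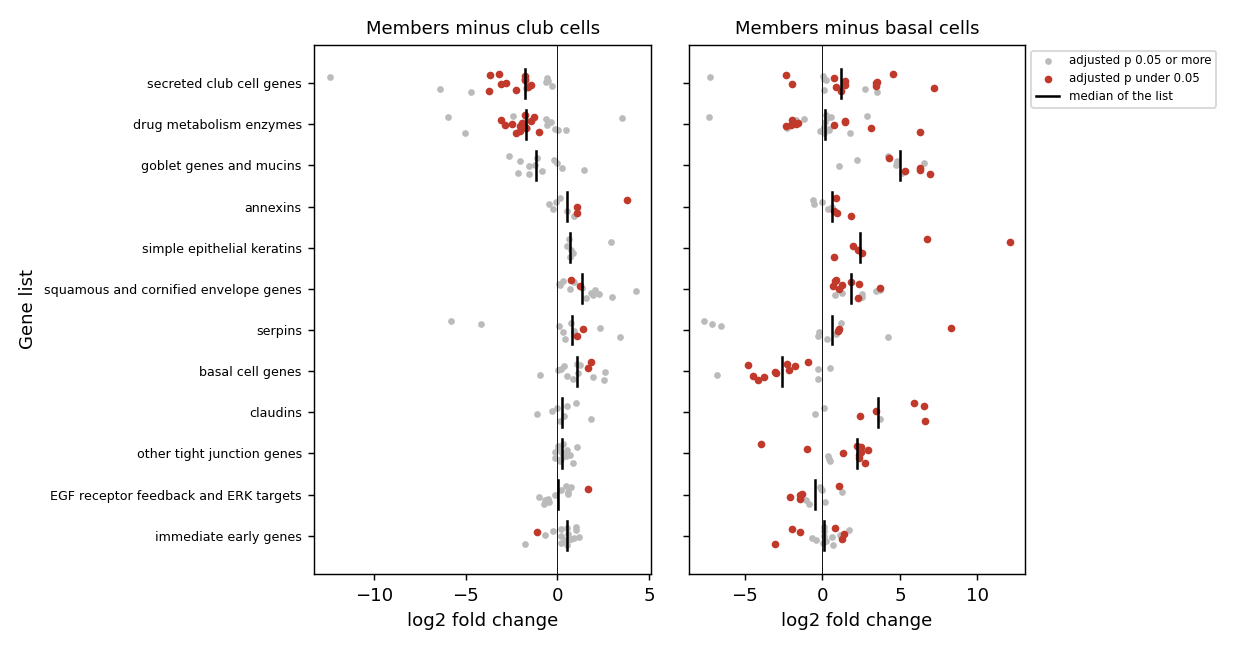
Each point is a tested gene of a list, with its log2 fold change in members against club cells (left) or basal cells (right), red where the adjusted p is under 0.05; the black line is the list's median. Against club cells the red points lie mainly in the secretory and drug metabolism lists, below 0; against basal cells the keratin, claudin and tight junction lists lie mostly above 0.

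The Areg-zero cells met the same limits as the members except for Areg, but many lay among basal cells. In the clustering, 101 of them fell in a cluster with 503 basal cells, 34 in one with 449, 25 in one with 285 and 8 in one with 222. Krt5 was at 0 in 82 of 148 and 31 of 163 of them, against 34 of 37 and 15 of 19 members. edgeR called 166 genes higher and 214 lower in members against them (1.46% and 1.88% of those tested, 3.34% in all). These calls were the least stable. Without the library block edgeR called 0, with 1609 genes at an unadjusted p under 0.05. Leaving out the day 40 members left 47 calls and leaving out the day 56 members 23, while leaving out the day 40 Areg-zero cells gave 1091 and the day 56 Areg-zero cells 336. DESeq2 called 565. None of the 31 named genes called here stayed called with each sum left out in turn.

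Among them, Clca3b was at 428 and 123 CPM in members and 66.3 and 4.24 in Areg-zero cells (3.09, SE 0.38, adjusted p = 0.006), Tppp3 at 442 and 376 against 100.9 and 26.1, and Ccdc68 at 58.2 and 45.7 against 10.2 and 5.65. Upk3a, a given marker, was at 753 and 783 CPM against 131 and 85.4, which is a description. Of 6 simple epithelial keratins 5 were higher, of 9 annexins 4 (Anxa1, Anxa2, Anxa3 and Anxa5), of 15 squamous genes 5, and of 14 basal cell genes 6 were lower. The Areg-zero cells still had 130 and 246 CPM of Krt5 (of all UMIs, unscaled), against 11.1 and 19.3 in members, and their Epcam requirement was not set for members. The part of the cells that lay among basal cells in the keratin and basal gene counts was not tested. All 3 comparisons share the member sums, so they are not independent of each other.

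Between the 2 recipients, members differed in several genes, described here without a test because each day is 1 animal. Of the named genes, Wnt10a was 5.03 times as high at day 40 as at day 56 (95% interval 2.31 to 13.0, counting error only), Krt17 3.76 times (2.22 to 6.79), Clca3b 3.48 times (2.43 to 5.11) and Cldn18 4.70 times (3.22 to 7.10). At day 56, 1 cell gave 6 of 7 Wnt10a UMIs, 9 of 16 of Krt17, 24 of 35 of Clca3b and 28 of 30 of Cldn18. The intervals leave out this spread between cells and are too narrow for it. Scgb3a2 went the other way with a ratio of 0.257 (0.224 to 0.295), and Areg too with 0.551 (0.478 to 0.635). Upk3a at 0.962 (0.815 to 1.14), Tppp3 at 1.18 (0.933 to 1.49) and Serpinb2 at 0.797 (0.620 to 1.03) lay close to 1. Club cells shifted the same way in several of these: Wnt10a was at 8.96 and 1.95 CPM there, Krt17 at 20.6 and 6.63, Clca3b at 40.8 and 12.7, Cldn18 at 253 and 113, and Scgb3a2 at 9208 and 24700.4. The ratios of these genes are thus not traits of the members alone. Areg showed no such shift in club cells, at 71.8 and 73.4 CPM of all UMIs. With 19 cells at day 56, 3 cells gave 66.0% of the UMIs of the 6 given markers, against 27% at day 40, so the day 56 levels lean on fewer cells.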

How the data were processed

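The authors deposited a matrix of raw UMI counts for each library, which the values bear out as whole numbers. Cell Ranger, STARsolo, Seurat, GRCh38 and GRCm38 appear in the submitters' processing notes. The sources used here do not give the role of each tool. Barcodes with over 10% human UMIs (192, all control) were left out. Genes were matched by Ensembl ID (30766 of 30905), because 711 symbols differ from the annotation and the files name the Areg ID otherwise. The members and gene lists were chosen with earlier results of these data known.

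Shares carry exact Clopper-Pearson intervals and count ratios exact Poisson-based ones (95%). Neighbours and clusters used 2000 variable genes, 30 principal components, 15 neighbours and Leiden at resolution 1 (seed 1). Thinning used 5000 UMIs per cell. UMIs summed per set and library were tested with edgeR 4.0.16 (robust quasi-likelihood F-test after TMM scaling and filterByExpr, with Benjamini-Hochberg adjustment over all genes at 0.05). The library is a block because sets of 1 library come from 1 recipient. Over 6109 genes, deviations of paired sums correlated at only 0.234 to 0.266 in pairs with the members. Among the other sets they correlated at 0.597 to 0.617. Each SE is approximate: the size of the log2 fold change over the square root of its F statistic. With 3 residual degrees of freedom, tests on simulated counts for members against club cells recovered 98% of 200 genes changed 4-fold among 11049. Of the calls 12.9% were false, more than the threshold of 0.05 aims at. The simulation gave the members sums the same spread per gene as the other sets. The 12.9% therefore does not cover genes whose UMIs came mostly from 1 member. The changed genes were drawn only from those of higher mean CPM, so the 98% does not cover genes of few UMIs. Replicates differ in recipient and day.

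Named genes were, by size of change among called genes of at least 20 mean CPM that moved alike in both libraries, 12 per direction against club cells and 6 against each other set, up to 4 called genes per list against club cells, the rule genes, the given markers, Epcam, EGFP and mCherry. Other list members are named to show a list. Alternatives were DESeq2 1.42.0, RLE scaling, no filter, other limits for members, doublets left out, each sum left out and no block. Software was Python 3.11.15 with scanpy 1.11.5, and R 4.3.3.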

Additional observations from a re-analysis of the deposited data

How the results depend on the processing

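The direction of all 51, 48 and 31 named calls (against club, basal and Areg-zero cells) held, where the gene was tested, in each alternative but the club cells with 3 or more Areg UMIs, while the number of calls did not. These genes were chosen as called in the same counts, and many also for moving alike in both libraries. Their direction was thus largely fixed by the choice and does not back the calls. The library block pairs the sums of 1 recipient. With no replicate block, 4 genes were called higher and 5 lower against club cells (9 in all), 427 and 325 against basal cells (752) and 0 and 0 against Areg-zero cells (0, with 1609 genes at an unadjusted p under 0.05). DESeq2 called 298 higher against club cells and 301 against Areg-zero cells. With no filter on low counts, calls were 467 higher and 553 lower against club cells (1020), 1160 lower against basal cells, and 488 and 509 against Areg-zero cells (997). Leaving out 1 sum at a time, where a lone members sum is assumed to vary like the other sets, gave 39 to 93 higher and 55 to 75 lower against club cells (94 to 151 in all), 390 to 741 and 306 to 613 against basal cells (707 to 1354), and 14 to 527 and 9 to 564 against Areg-zero cells (23 to 1091).

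The settings that follow were chosen after seeing the data. Club cells with no Areg UMI gave 309 higher (628 in all with the lower ones), and club cells with 3 or more Areg UMIs gave 0 higher and 3 lower (3 in all, 715 genes at an unadjusted p under 0.05). There Anxa2 turned to -0.12, F3 to -0.55, Hbegf to -0.60 and S100a14 to -0.28. With the 2 sets alone in the fit, calls were 395 and 396 against club cells (791) and 5 and 8 against Areg-zero cells (13). The causes were not tested.

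Shares of members moved with the limits. The day 40 donor-derived share was 1.37% after thinning to 5000 UMIs and 0.765% with Scgb1a1 under 100 per 10000, where the day 56 share was 0.634%. The day 40 endogenous share was 0% after thinning and 0% at 5 or more Areg UMIs. The planned test of members against endogenous cells of the same limits, with its alternatives, was not run, because those libraries gave 2 and 0 such cells. Depth per member and the 19 cells of day 56 limit what could be called for genes of few UMIs.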
